A study of Mus musculus with 118 samples.

Results

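The Irx genes are the 6 mouse members of the Iroquois homeobox family, Irx1 to Irx6. They were taken by name from 26180 genes with a curated RefSeq transcription start site (TSS) on mm10. Each was set against peaks of 3 Polycomb proteins by position. The rule itself uses gene names and not peak values, although earlier results of these data were known when the family was picked. A promoter was the TSS with 2500 bp on either side, and a peak counted as overlapping if it shared at least 1 bp.

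Iroquois proteins are transcription factors with a homeodomain of the TALE class, which carries an extended loop between its first helices. They pattern the neural tube, heart, limb and other tissues of the embryo. The genes lie in 2 clusters that arose by duplication of an ancestral cluster, so each gene has a counterpart in the other cluster. Polycomb repressive complex 1 (PRC1) places ubiquitin on histone H2A and Polycomb repressive complex 2 (PRC2) methylates histone H3. Both gather at CpG islands, short stretches dense in CpG dinucleotides, where they keep developmental genes silent in embryonic stem cells (ESCs).

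Peaks came from E14 mouse ESCs that had not received tamoxifen. They were profiled by cChIP-seq, chromatin immunoprecipitation and sequencing calibrated with added cells of the human line HEK293T. RING1B is the catalytic core of PRC1, SUZ12 is a core subunit of PRC2 and PCGF2 is a subunit of canonical PRC1. The PRC1CPM line (clone 41) carries Ring1a with the inactivating I50A/D53K changes, a Ring1b allele that tamoxifen flips from wild type to I53A/D56K, and ERT2-Cre at Rosa26. RING1A was therefore already inactive in its untreated cells. The PRC1CKO line (clone B9) is Ring1a-/-, with Ring1b fl/fl and the same Cre. Each line is 1 clone. The RING1B list held 18643 peaks, the SUZ12 list 7438 and the PCGF2 list 3680.

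Each list merges several samples into 1 set of positions. RING1B and SUZ12 peaks were kept where both untreated lines had them, RING1B peaks also had to lose signal on tamoxifen in PRC1CKO cells, and PCGF2 peaks were those found in all replicates of untreated PRC1CPM cells. The lists hold no heights, p-values or replicates. No error or test could therefore be given, a width depends on the calling rule of its list, and treated cells were not compared. The lists do not give the depth behind them, and library depths were not used here. The lists also hold no expression values, so the labelled cell type was not checked against its markers.

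The sequences below show where on the DNA these domains lie. The RefSeq table held a promoter window, from 250 bases before to 50 bases from the TSS on, for 3 of the 6 genes. That of Irx2 is chr13:72628570-72628869 on the + strand, that of Irx3 is chr8:91801605-91801904 on the - strand and that of Irx4 is chr13:73260247-73260546 on the + strand (mm10). Each is written 5′ to 3′ along its gene, with every CpG in capitals (the letters CG, which read the same on both strands and cannot overlap each other). The last sequence, chr8:92460305-92460604 on the + strand, is the stretch of 300 bases with the most CpG inside a peak between Irx5 and Irx6 that has no annotated gene.
Irx2: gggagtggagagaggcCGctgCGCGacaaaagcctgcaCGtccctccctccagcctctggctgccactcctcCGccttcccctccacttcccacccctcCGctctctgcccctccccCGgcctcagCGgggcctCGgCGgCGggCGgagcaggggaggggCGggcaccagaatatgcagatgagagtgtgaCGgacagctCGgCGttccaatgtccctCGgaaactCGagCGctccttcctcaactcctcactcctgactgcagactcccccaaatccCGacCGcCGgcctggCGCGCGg
Irx3: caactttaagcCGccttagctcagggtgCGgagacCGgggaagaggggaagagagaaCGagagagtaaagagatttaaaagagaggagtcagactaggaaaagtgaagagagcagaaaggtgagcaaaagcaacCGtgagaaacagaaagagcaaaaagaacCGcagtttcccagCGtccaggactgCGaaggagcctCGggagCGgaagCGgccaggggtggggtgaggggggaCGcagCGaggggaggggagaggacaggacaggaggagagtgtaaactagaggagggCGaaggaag
Irx4: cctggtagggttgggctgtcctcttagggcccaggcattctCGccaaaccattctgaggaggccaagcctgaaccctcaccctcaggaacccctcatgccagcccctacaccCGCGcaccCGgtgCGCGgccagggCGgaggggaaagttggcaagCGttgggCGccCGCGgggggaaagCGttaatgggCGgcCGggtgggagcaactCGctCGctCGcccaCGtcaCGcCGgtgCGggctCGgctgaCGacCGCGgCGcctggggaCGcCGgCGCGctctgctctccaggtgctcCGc
Site between Irx5 and Irx6: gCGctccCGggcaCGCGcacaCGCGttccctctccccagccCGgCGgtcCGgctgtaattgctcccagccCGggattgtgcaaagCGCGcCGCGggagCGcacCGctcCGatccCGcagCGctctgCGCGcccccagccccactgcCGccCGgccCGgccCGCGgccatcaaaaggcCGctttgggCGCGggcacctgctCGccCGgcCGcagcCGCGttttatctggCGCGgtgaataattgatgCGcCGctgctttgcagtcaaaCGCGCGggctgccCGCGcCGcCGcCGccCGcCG

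The Irx4 window held 31 CpG, the Irx2 window 25 and the Irx3 window 14. Of the 32851 promoter windows in the table, 10.6% held as many CpG as Irx4 or more, 18.4% as many as Irx2 and 36.3% as many as Irx3. The median window held 7. The site between Irx5 and Irx6 held 48, a count that 1.22% of promoter windows reached. Its window was picked for its CpG, which the promoter windows were not.

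Every Irx promoter was occupied by both Polycomb complexes. A RING1B peak lay at 6 of 6 promoters, where 53.2% of all genes had one. A SUZ12 peak lay at 6 of 6, against 24.8% of all genes, and a PCGF2 peak at 6 of 6, against 13.5%. Peaks of all 3 lists met at 6 of 6, against 13.4% of all genes (3508 of 26180). Each gene had exactly 1 peak of each list at its promoter, and each peak covered the TSS base itself. These 2 features were not counted over other genes, and peaks wider than the promoter window make them likely. The members share a family and 2 loci, so they are not independent draws from the genome.

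The peaks were broad. RING1B peaks at the Irx promoters had a median width of 14.3 kb, 7.92 times the median of 1810 bp over all 13922 genes with a RING1B promoter peak. For SUZ12 the median was 14.7 kb, against 3232 bp, and for PCGF2 it was 12.6 kb, against 2912 bp. Genes with all 3 lists had wider RING1B and SUZ12 peaks too, but their PCGF2 median was almost the same as over all genes with a PCGF2 promoter peak. Over the 3508 genes with all 3 lists at a promoter, the medians were 4918 bp for RING1B, 5394 bp for SUZ12 and 2914 bp for PCGF2. Of those genes, 77.6% had a narrower RING1B peak than Irx6, the narrowest of the family. The other 5 genes had wider RING1B peaks still.

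**Figure D1:**
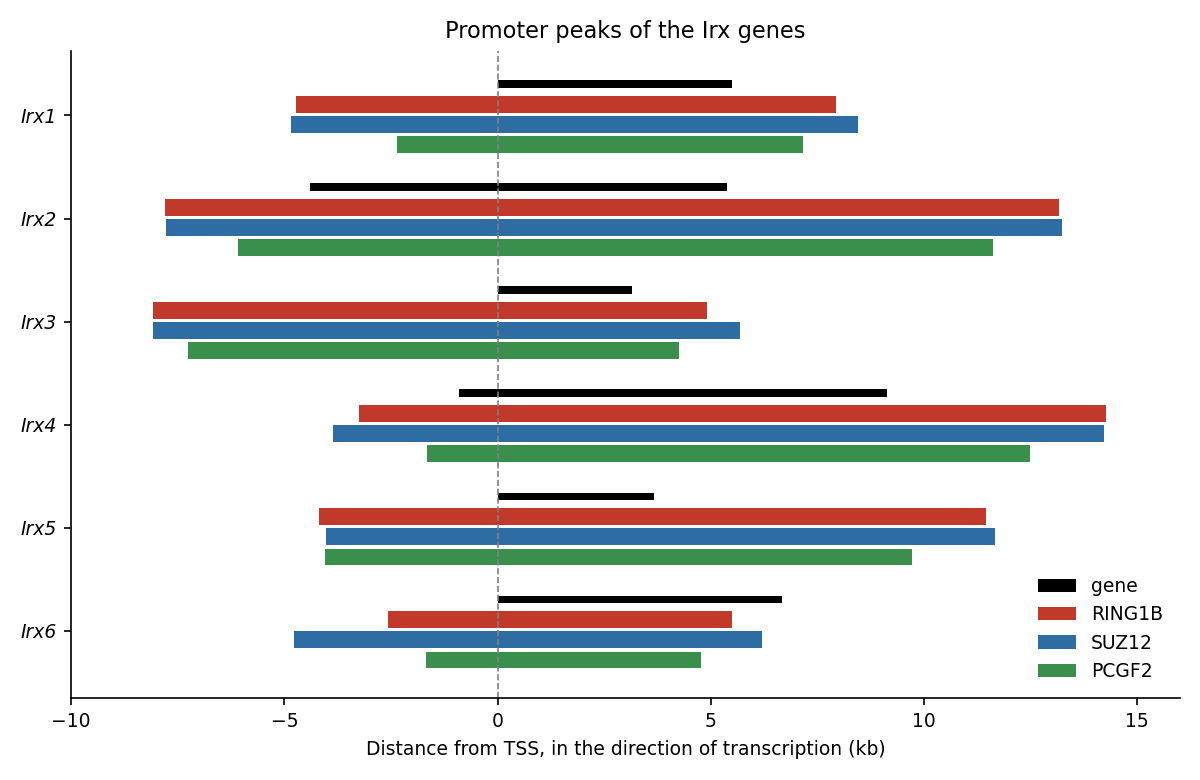
Extent of the RING1B, SUZ12 and PCGF2 promoter peaks of the 6 Irx genes in kb from the TSS, with transcription running to the right and the RefSeq gene in black (the gene can start before the curated TSS where a predicted transcript does). Irx2 has the widest peaks and Irx6 the narrowest in all 3 lists, and the peaks run past the end of every gene except Irx6.

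The chromosome 13 cluster holds Irx1, Irx2 and Irx4. Irx2, a gene expressed in the developing nervous system and limb, had the widest domain of the family. The gene, 5 exons in its curated transcript, lies at chr13:72624430-72634196. Its RING1B peak (chr13:72621027-72641994) was 20968 bp wide, and 87 of the 18643 RING1B peaks were wider. SUZ12 gave nearly the same interval, at 21022 bp, and PCGF2 gave 17703 bp. The domain ran 7793 bp upstream of the TSS and 13174 bp downstream in the RING1B list, which took it 7798 bp past the 3′ end of the gene. The start site of a long non-coding RNA on the opposite strand, Gm20554, lay 0.26 kb from that of Irx2, and both shared the domain.

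Irx4, known for its role in the ventricles of the heart, came next. The gene has 6 exons and lies at chr13:73259589-73269622. Its RING1B peak (chr13:73257257-73274764) measured 17508 bp, its SUZ12 peak 18104 bp and its PCGF2 peak 14145 bp. This was the most lopsided domain of the family, with 3240 bp upstream of the TSS and 14267 bp downstream for RING1B. PCGF2 left part of the promoter window bare, covering 83.0% of it. A separate RING1B peak of 1049 bp (chr13:73251223-73252271) with neither SUZ12 nor PCGF2 had its middle 8750 bp from the Irx4 TSS.

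Irx1 (chr13:71958232-71963723, 4 exons), which acts in neural and heart patterning, had a RING1B peak of 12652 bp (chr13:71955796-71968447). The SUZ12 peak was 13305 bp and contained the whole RING1B peak. The PCGF2 peak was 9537 bp and covered 75.4% of the RING1B peak, the lowest share among the 6 genes. It fell short of the RING1B edge by 2356 bp upstream and by 759 bp downstream.

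The chromosome 8 cluster holds Irx3, Irx5 and Irx6. Irx5, which shapes electrical repolarization across the heart wall and acts in retinal bipolar cells, had the third widest domain. Its RING1B peak (chr8:92353599-92369251) was 15653 bp, its SUZ12 peak 15687 bp and its PCGF2 peak 13770 bp. The gene itself (chr8:92357796-92361456, 3 exons) is 3661 bp long, and the RING1B peak reached 7795 bp past its 3′ end. The TSS of the long non-coding RNA Crnde, transcribed in the opposite direction, lay 1.68 kb away inside the same 3 peaks.

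Irx3, which patterns the ventral neural tube, was the 1 gene whose domain lay mostly upstream. It lies at chr8:91798511-91801654 and has 4 exons. Its RING1B peak (chr8:91796733-91809740) was 13008 bp, with 8086 bp upstream of the TSS and 4921 bp downstream. The same asymmetry was seen for SUZ12 (8077 bp upstream, 5686 bp downstream) and PCGF2 (7259 bp upstream, 4261 bp downstream). The upstream arm overlapped the predicted non-coding genes Irx3os and Gm39222. In the other 5 genes the downstream arm was the longer in every list. The share of other genes with a longer downstream arm was not counted.

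Irx6, expressed in retinal bipolar cells, had the narrowest peaks. The gene lies at chr8:92674289-92680956. The peaks measured 8079 bp for RING1B (chr8:92671709-92679787), 10990 bp for SUZ12 and 6466 bp for PCGF2. Irx6 was also the only member whose body was not wholly covered. RING1B covered 82.5% of it, SUZ12 93.1% and PCGF2 71.7%. The RING1B and SUZ12 peaks ended inside the last of its 6 exons, 1169 bp and 462 bp short of the 3′ end, and the PCGF2 peak ended in intron 5. SUZ12 extended 2204 bp beyond RING1B upstream, the longest such overhang in the family.

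The rank order of widths was Irx2, Irx4, Irx5, Irx3, Irx1, Irx6 in each of the 3 lists. With a single set of positions per list, it cannot be said which neighbours in this order differ beyond replicate spread. The RING1B widths of Irx1 and Irx3 were 356 bp apart, whereas those of Irx6 and Irx1 were 4573 bp apart. All 3 lists include PRC1CPM cells, so the repeated order is not 3 separate observations.

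Gene bodies lay inside the domains. The RING1B peak covered the whole gene for 5 of the 6 genes, where 16.4% of genes with all 3 lists at a promoter were wholly covered. The Irx genes are short, from 3144 to 10034 bp. Among the 540 protein-coding genes with all 3 lists and a length in that range, 37.0% were wholly covered and the median RING1B width was 6902 bp. The SUZ12 and PCGF2 peaks also covered 5 of 6 bodies each. Whole coverage among other genes was counted for RING1B only, so these counts are not shown to be unusual. The RING1B domain ended 1778 bp past the gene at Irx3, 2436 bp past it at Irx1 and 5142 bp past it at Irx4.

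The 3 lists were nested. The PCGF2 peak lay inside the RING1B peak at 6 of 6 genes, as it did at 93.6% of genes with all 3 lists. It lay inside both other peaks at 5 of 6, against 82.0% of those genes, so this nesting was near the background. The exception was Irx5, where PCGF2 began 31 bp outside SUZ12. Nearly all of each RING1B peak lay under SUZ12, between 98.9% (Irx5) and 100% (Irx1 and Irx6). The edges of these peaks were at most 765 bp apart on either side at every gene except Irx6, where SUZ12 ran 2204 bp further upstream. PCGF2 covered between 75.4% (Irx1) and 88.6% (Irx3) of it.

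**Figure D2:**
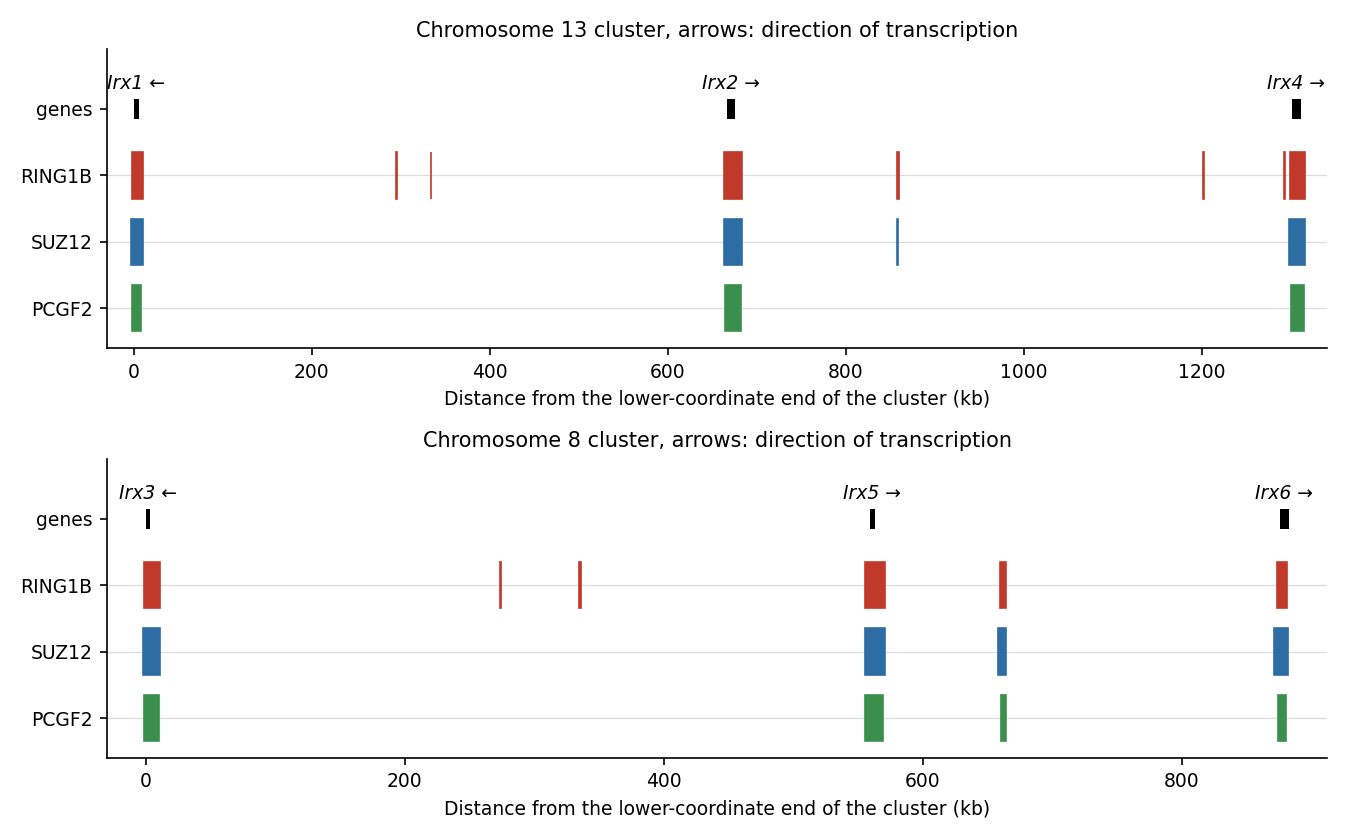
Peaks of the 3 lists (coloured blocks, to scale) across both Irx clusters, in kb from the lower-coordinate end of each cluster, with genes in black and arrows for the direction of transcription. Each gene sits under a block in every list, the DNA between genes is mostly bare, and 1 further site with all 3 lists stands between Irx5 and Irx6.

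Between the genes the clusters were mostly empty of Polycomb peaks. The chromosome 13 cluster (chr13:71958232-73269622) spans 1311 kb and held 8 RING1B, 4 SUZ12 and 3 PCGF2 peaks, of which 3 in each list were those of Irx1, Irx2 and Irx4. The chromosome 8 cluster (chr8:91798511-92680956) spans 882.4 kb and held 6 RING1B, 4 SUZ12 and 4 PCGF2 peaks, again with 3 in each list at the genes. RING1B covered 3.75% of the first cluster and 4.76% of the second, against 1.61% of all chromosomes. The genes' own peaks supplied 88.6% and 83.2% of these RING1B bases.

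The DNA between neighbours held long gaps. RING1B covered only 1.61% of all chromosomes, and gaps elsewhere were not measured, so these are not shown to be unusual. RING1B covered 1.44% of the 660.7 kb between Irx1 and Irx2, and the longest run without a RING1B peak was 328.3 kb. It covered 2.29% of the 625.4 kb between Irx2 and Irx4, with a longest free run of 341.7 kb. It covered 2.65% of the 556.1 kb between Irx3 and Irx5, with a free run of 261.9 kb. These 3 stretches had no PCGF2 peak apart from the arms of the gene domains. The stretch between Irx5 and Irx6 was the shortest, at 312.8 kb, and the most covered, at 4.80%. All these percents include the arms of the gene domains. RING1B peaks at no Irx promoter made up 1385 bp between Irx1 and Irx2 and 4199 bp between Irx2 and Irx4. They made up 2433 bp between Irx3 and Irx5 and 4646 bp between Irx5 and Irx6.

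Of the 8 RING1B peaks in the clusters that were at no Irx promoter, 6 had neither SUZ12 nor PCGF2. The share of all RING1B peaks with neither was not counted. The median width of the 8 was 916.5 bp. Over all 6579 RING1B peaks of the genome away from every promoter it was 1139 bp, so small peaks are common there. One of the 8 lay at another promoter, that of the long non-coding RNA D730050B12Rik, 187.9 kb from the Irx2 TSS. There RING1B (chr13:72815798-72818244) and SUZ12 (chr13:72816102-72817231) were present and PCGF2 was not. The promoter of 4930555K05Rik, a non-coding RNA 31.4 kb from the Irx4 TSS, had a peak of no list.

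The site between Irx5 and Irx6 differed from the rest. It carried a RING1B peak of 4646 bp (chr8:92458247-92462892), a SUZ12 peak of 6474 bp (chr8:92456429-92462902) and a PCGF2 peak of 3877 bp (chr8:92458772-92462648). No RefSeq or GENCODE gene overlapped it. It began 96.8 kb past the end of Irx5 and ended 211.4 kb before the start of Irx6. Of the 7 RING1B peaks in the clusters away from every promoter, it was the 1 that met both other lists, where 7.84% of all 6579 such peaks in the genome did. Of the 126 peaks genome-wide that met both and overlapped no RefSeq gene, 37 were wider. Its 300 bases printed above, near the middle of the peak, were 74.7% GC with an observed/expected CpG ratio of 1.18.

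DNA dense in CpG lay mainly inside the domains. The observed/expected ratio sets the number of CpG against that expected from the C and G content of the same stretch, and it is low over most of the genome. Over the promoter windows it was 0.790 at Irx5, 0.685 at Irx3, 0.669 at Irx2, 0.589 at Irx1, 0.400 at Irx4 and 0.398 at Irx6. The median of all 26180 genes was 0.327, and 99.5% of genes had a lower ratio than Irx5. Irx4 and Irx6 stood nearer the middle, above 64.3% and 63.8% of genes. They are counterparts in the 2 clusters. Their PCGF2 peaks and that of Irx1 left parts of the promoter window uncovered, and whether this goes with CpG content was not tested.

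**Figure D3:**
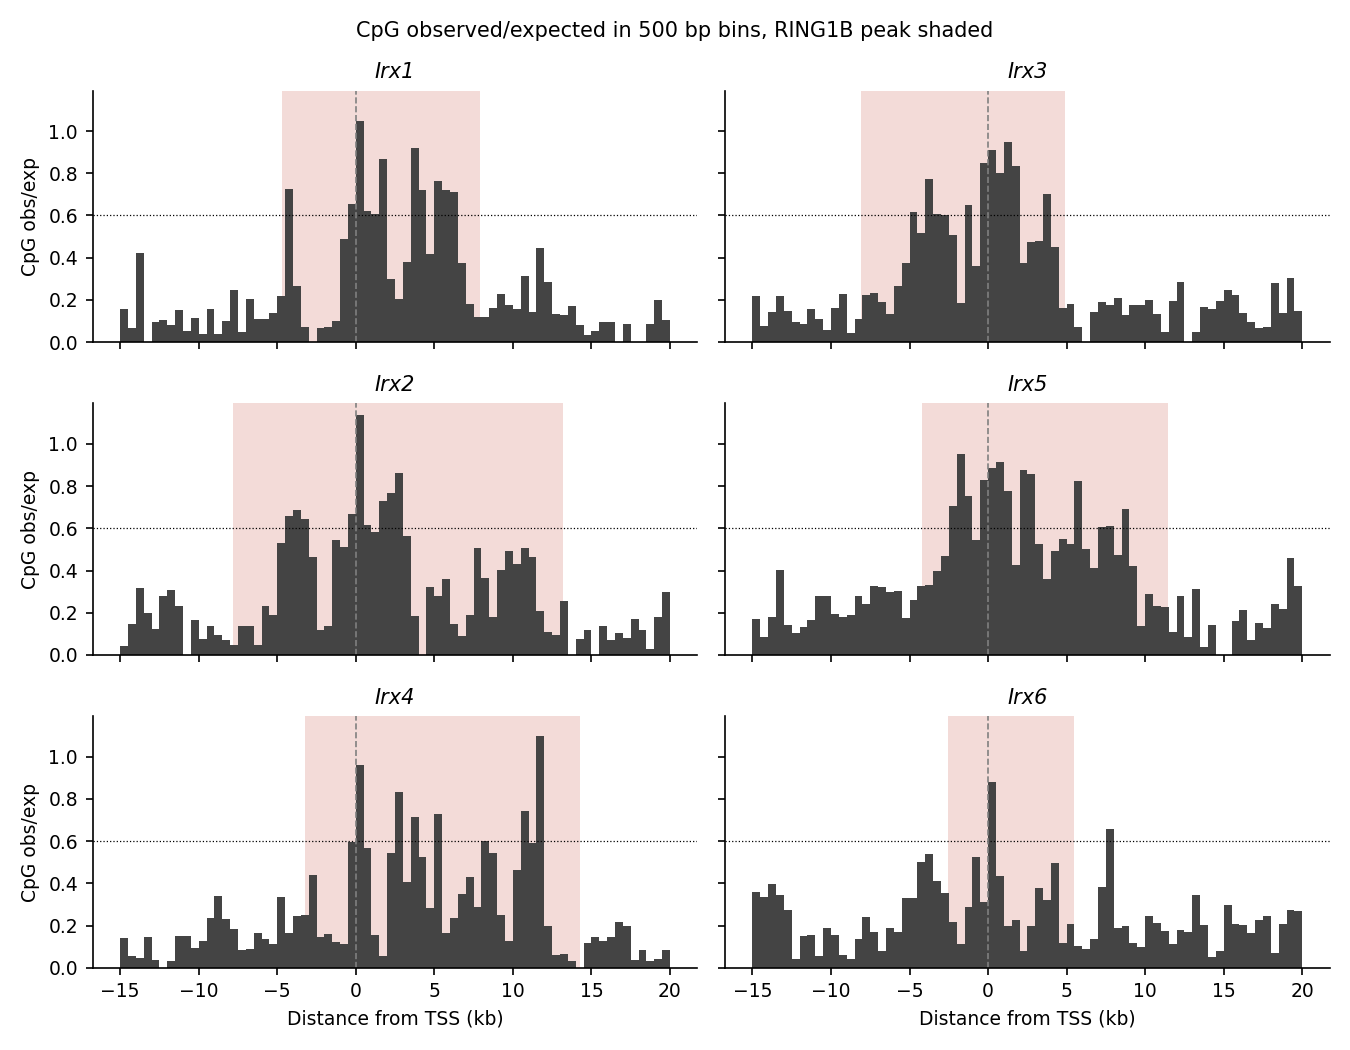
CpG observed/expected ratio in bins of 500 bp from 15 kb upstream to 20 kb downstream of each Irx TSS, with the RING1B peak shaded and a dotted line at 0.6. Counterparts stand side by side. CpG-dense bins lie mainly within the shading, singly at Irx6 and over several kb at Irx5.

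The ratio was higher across each RING1B peak than in the 10 kb on either side. These values cover whole stretches and do not show where the ratio falls. At Irx4, whose RING1B peak reached 3240 bp upstream of the TSS, the bin centred 1250 bp upstream had only 0.123. At Irx1 it was 0.522 across the RING1B peak, 0.115 in the 10 kb upstream and 0.146 in the 10 kb downstream. At Irx5 it was 0.632 across the peak, against 0.234 upstream and 0.161 downstream. At Irx2, Irx3 and Irx4 the ratio was 0.468, 0.565 and 0.413 across the peak, and their flanks lay between 0.111 and 0.155. The difference was smallest at Irx6, with 0.364 across the peak, 0.207 upstream and 0.210 downstream. In all 6 genes the peak exceeded both flanks. How often other RING1B peaks exceed their flanks was not counted, so this is not shown to be particular to the Irx genes.

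The first 500 bp from the TSS were dense in CpG at every gene, from a ratio of 0.880 at Irx6 to 1.14 at Irx2. CpG-rich bins, those of 500 bp with a ratio of at least 0.6 and at least 50% GC, then differed in number. Counted on fixed genome bins, 14 met the RING1B peak of Irx5, 10 that of Irx3, 9 that of Irx2, 7 that of Irx4, 5 that of Irx1 and 1 that of Irx6. Counted on bins that start at the TSS, as plotted, the numbers were 10 at Irx5, 10 at Irx3, 8 at Irx2, 7 at Irx1, 6 at Irx4 and 1 at Irx6. The order of Irx1 and Irx4 and the lead of Irx5 over Irx3 therefore depended on where the bins began. In both counts Irx6, with the narrowest peak, had the fewest, and Irx2, with the widest, had fewer than Irx5. At Irx4 the highest ratio, 1.10, was in the bin centred 11750 bp downstream of the TSS, past the 3′ end of the gene and inside the domain. That bin had 45.4% GC, so it did not count as CpG-rich.

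**Figure D4:**
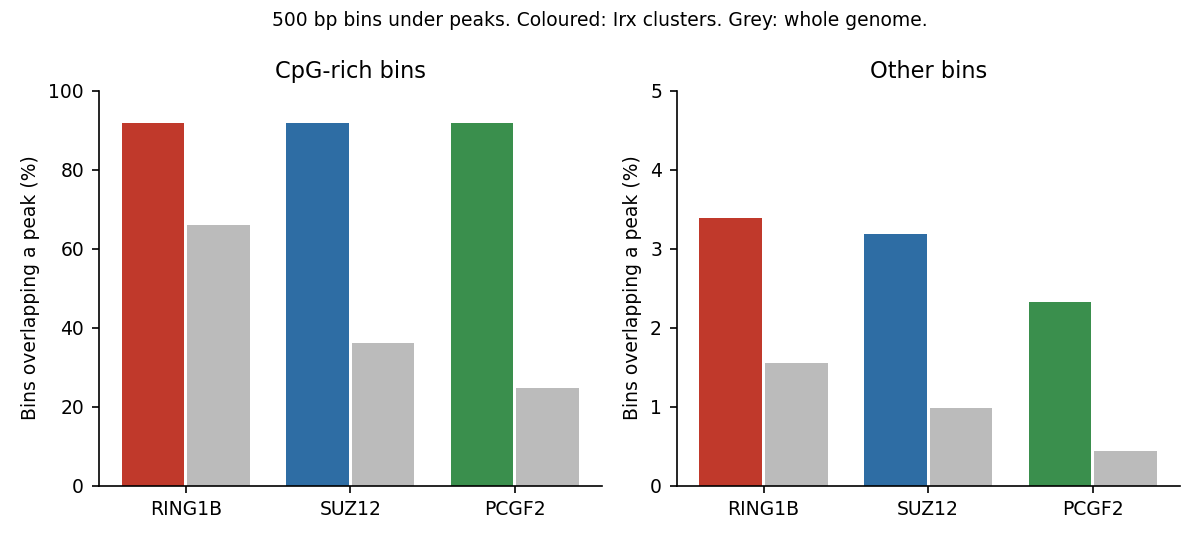
Percent of 500 bp bins that overlapped a peak of each list, for CpG-rich bins (left) and all others (right, axis to 5%), in the Irx clusters (coloured) and in the whole genome (grey). The cluster shares stand above the genome shares in all 3 lists for both kinds of bin.

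Within the 2 cluster spans, 45 of 49 CpG-rich bins overlapped RING1B, against 65.9% of such bins in the genome. SUZ12 overlapped 45 of 49, against 36.1%, and PCGF2 overlapped 45 of 49, against 24.6%. Of the 45 under RING1B, 43 lay under the peaks of the Irx genes and 2 under the site between Irx5 and Irx6. The 4 without RING1B were isolated single bins, and the highest ratio among them was 0.701. Of the 4336 other bins in the spans, 3.39% overlapped RING1B, against 1.55% in the genome. The share was 3.18% for SUZ12, against 0.985%, and 2.33% for PCGF2, against 0.437%. Neighbouring bins share peaks, so these counts are descriptions.

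CpG density over a whole Irx peak was not unusual. The median ratio of the 6 RING1B peaks was 0.495, below the median of 0.518 over all RING1B peaks assigned to chromosomes. It was above the median of 0.446 over the 605 RING1B peaks at least as wide as that of Irx6. Repeats took up a median of 7.95% of the Irx RING1B peaks, against 9.59% of all RING1B peaks and 14.2% of the wide ones.

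The counterparts across the clusters were checked by protein sequence, since gene order alone does not fix them. In global alignments of the translated coding sequences, Irx2 and Irx5 were identical at 50.4% of the residues of the shorter protein, Irx1 and Irx3 at 47.5%, and Irx4 and Irx6 at 45.3%. The other 12 pairs ranged from 32.1% to 40.5%. Each gene's closest relative was therefore its counterpart in the other cluster.

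Peak widths were alike in only some of these pairs. The RING1B peak of Irx3 was 1.03 times as wide as that of Irx1, and that of Irx2 was 1.34 times as wide as that of Irx5. The RING1B peak of Irx4 was 2.17 times as wide as that of Irx6, a difference of 9429 bp. The SUZ12 peaks of Irx4 and Irx6 differed by 1.65 times and the PCGF2 peaks by 2.19 times. Orientation was kept, with Irx1 and Irx3 transcribed from the - strand and the other 4 genes from the + strand.

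The protein-coding genes nearest the clusters had no PCGF2. Their TSSs lay from 68.0 kb (Ndufs6) to 2161 kb (Med10) from the nearest Irx TSS. Among the 12 nearest protein-coding genes, 3 on either side of each cluster, 8 had a RING1B promoter peak, 3 had SUZ12 and 0 had PCGF2, where 53.2%, 24.8% and 13.5% of all genes did. The RING1B and SUZ12 counts were thus near those shares, and 12 genes are few for a share as low as that of PCGF2. Fto and Rpgrip1l, beside Irx3, had a peak of no list at their promoters. Introns of Fto are known to hold distal regulatory DNA of Irx3. Mmp2, the nearest gene beyond Irx6, had a RING1B peak of 508 bp and a SUZ12 peak of 282 bp. Lpcat1 and Lpcat2, relatives at the outer side of each cluster, had RING1B peaks of 1414 bp and 550 bp. Slc6a2 and Slc6a3, transporter genes further out, were looked up after other values were seen. Slc6a2, 286.8 kb from the Irx6 TSS, had all 3 lists, with a RING1B peak of 5051 bp, and Slc6a3 had RING1B and SUZ12 but not PCGF2.

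**Figure D5:**
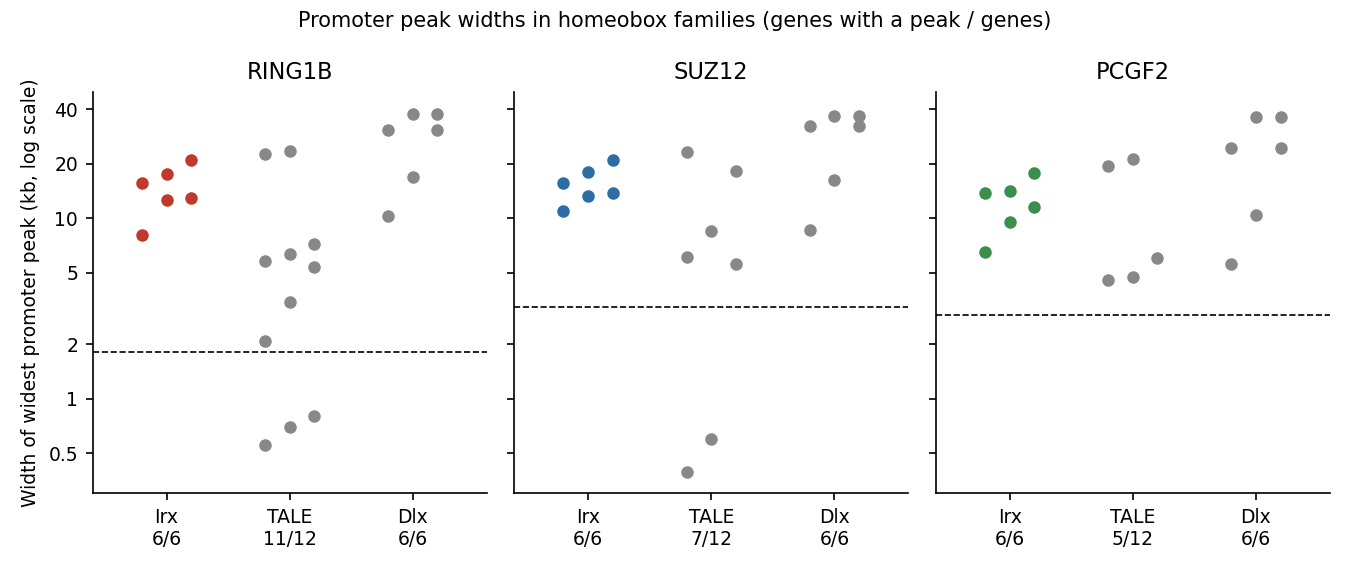
Width of the widest promoter peak of each gene in kb (log scale) for the Irx genes (coloured) and 2 other homeobox lists (grey), with the number of genes that have a peak under each name. The dashed line is the median over all genes with a promoter peak of that list. The Irx points lie above the line in all 3 lists.

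Other homeobox families gave a scale for these values. Of 12 further TALE genes, 11 had RING1B, 7 SUZ12 and 5 all 3 lists at a promoter. Meis1 (23658 bp) and Meis2 (22820 bp) had RING1B peaks wider than that of Irx2, and the list's median was 5367 bp. All 6 Dlx genes had all 3 lists, with RING1B peaks of 10339 to 37823 bp in 4 distinct peaks. Dlx1 with Dlx2, and Dlx5 with Dlx6, lay under a single RING1B peak each. No peak of any list joined a pair of Irx genes, and the closest pair, Irx5 and Irx6, stands 312.8 kb apart. Among 6 genes that mark stem cells (Pou5f1, Nanog, Zfp42, Esrrb, Klf4 and Tfcp2l1), 4 had RING1B at a promoter and 2 had all 3 lists. Over all genes the shares were 53.2% and 13.4%. The 2 genes were Klf4 and Esrrb. The Esrrb RING1B peak (chr12:86419271-86426022) lay far downstream of its first curated TSS, chr12:86361117.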

How the data were processed

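Per the labels and the methods of the study, the authors mapped read pairs with Bowtie 2 to a joint mouse (mm10) and human (hg19) genome, kept unique reads, removed duplicates with Sambamba, called broad peaks with MACS2 against Input and dropped blacklisted regions. The deposited files give only where each peak starts and ends, in base pairs, with no score. Of the 118 samples, only the untreated ones behind the 3 lists were used. The RING1B list also rests on RING1B data of PRC1CKO cells, untreated and after tamoxifen. Those data were published earlier and are not among the 118 samples.

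Positions were counted from base 1 and compared with GRCm38.p6, with 0 peaks past a chromosome end. Promoters were 2500 bp on either side of curated RefSeq TSSs, and overlap was 1 bp or more. Where a gene had several peaks, the widest was used. Bins with an unsequenced base were left out. Proteins were translated from curated coding sequences and aligned with Biopython 1.88 (BLOSUM62). Python 3.11.15 was used. The interval and CpG functions were tested on simulated data. The genes named were the 6 members, genes inside the clusters, the 3 nearest protein-coding genes on each side, 2 fixed homeobox lists and 6 stem cell genes, and Slc6a2 and Slc6a3 were added. The members and lists were chosen with earlier results of these data known. Another homeobox list that was fixed for comparison is not reported here. No significance test was run.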

Additional observations from a re-analysis of the deposited data

How the results depend on the processing

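Promoter windows of 500, 1000 and 5000 bp, predicted transcripts, 1 TSS per gene, the TSS base alone, a window at least 50% covered, peaks of at least 1000 bp and merging of nearby peaks were tried where they applied. Of the 83 values under alternatives, 79 stayed within set limits, including all counts of promoters and all median widths. Each Irx gene has 1 distinct curated TSS, with 1 wide peak of each list over it. Most settings of window, TSS and minimum width could therefore hardly change those counts and medians, so their sameness says little. The limit was a change of 1.5 times, which includes the fall from 14 RING1B peaks in the clusters to 10 when those under 1000 bp were dropped, and for shares of bins the narrower 95% Wilson interval of the reported share. The 4 values that moved were these. RING1B covered 2.49% of the DNA between neighbours, and 1.58% where the stretches began 2500 bp outside the genes. The share of CpG-rich bins under RING1B, 91.8% with bins of 500 bp (95% Wilson interval 80.8 to 96.8%, counting error only), was 72.7% with bins of 200 bp, 100% with bins of 1000 bp and 100% with a ratio of at least 0.75 and at least 55% GC. The interval takes bins as independent, although neighbouring bins share peaks, so it served only as a limit. No paired analysis was possible because each list merges its samples and no result comes from a test, and for the same reason no replicate could be left out. The lists give neither depth nor height, so a missing peak is not evidence that the protein is absent.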
